A study of Homo sapiens with 4 samples.

Results

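The glucocorticoid and mineralocorticoid receptor axis was followed at 5 genes: NR3C1, NR3C2, SGK1, FKBP5 and PER1. Open chromatin was read in the window of each gene, which is its annotated span on GRCh38 with 100 kb added on each side. Peaks of the 4 libraries that overlapped by at least 1 bp were merged into regions, and the 5 windows held 134 of the 138467 regions on chromosomes 1 to 22 and X. By gene, NR3C1 had 42 regions, PER1 30, FKBP5 25, NR3C2 19 and SGK1 18. The genes were chosen by the presence, width and rank of peaks in these same libraries, so the contrasts between genotypes are given as descriptions, with no test.

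The libraries are ATAC-seq, in which a transposase cuts accessible DNA, from the human line 786-O, which derives from a clear cell renal carcinoma. There were 2 WT control libraries, from Cas9-expressing cells with wild-type DEK, and 2 DEK KO libraries. DEK is a DNA-binding component of chromatin with histone chaperone activity. Both groups carry Cas9 from the LentiCas9-Blast virus, and the knockout cells also received LentiGuide-Puro virus with DEK guide RNAs before sorting of single cells. The Cas9 line was itself a clone, and whether replicate libraries came from separate clones or cultures is not said. The spread between them may therefore be technical. With 2 libraries in each group, no 2-sided exact test over libraries could give a p below 0.333. The labels' extraction text is about RNA and an mRNA kit, which leaves the preparation of the ATAC libraries undescribed. No hormone treatment is named in the labels.

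The lists held 89563 and 90409 peaks in the WT control libraries and 102760 and 99508 in the DEK KO libraries, so that the knockout lists were longer. Read depth was not in the lists and is unknown here. The DEK gene had 4 regions, all called in every list, so these lists give no check of the knockout. Of 6 renal carcinoma markers with an annotated start in the table used, PAX8, PAX2, EPAS1, VIM and MET had a peak within 1 kb of a start in every list, and CA9 in none. The blood marker PTPRC and the hepatocyte marker ALB had a peak in none, whereas the neuronal genes SYP and GAD1 had one in every list and RBFOX3 in 2 lists.

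As background, NR3C1 encodes the glucocorticoid receptor and NR3C2 the mineralocorticoid receptor, hormone-activated transcription factors that recognise the same palindromic DNA element. SGK1 is a kinase induced by both receptors that raises sodium transport in the distal nephron. FKBP5 is an HSP90 co-chaperone that lowers hormone binding by the glucocorticoid receptor and is itself induced by it, which forms a feedback loop, and PER1 is a circadian clock repressor with glucocorticoid-responsive transcription.

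The RefSeq promoter table for GRCh38.p14 gave 17 start sites for these genes, all on the minus strand: 7 for NR3C1, 4 for NR3C2, 3 for SGK1, 2 for FKBP5 and 1 for PER1. Starts are numbered here from the 5′-most one. The sequences below are the 250 bases before a start, 5′ to 3′. For NR3C1 and SGK1 an open and a closed start are shown, and for NR3C2 its open start alone. Those of FKBP5 and PER1 belong to a start whose call differed between libraries. Capitals mark matches to any motif searched on both strands: the receptor element (AGAACA and TGTTCT joined by NNN), its looser form (GNACA and TGTNC joined by NNN), its hexamer AGAACA, AP-1 TGANTCA, CRE TGACGTCA, the E-box CACGTG, the GC box GGGCGG and the CCAAT box GCCAAT. A full receptor element also holds its looser form and the hexamer, no other motif contains another, and overlapping GC boxes were counted separately.
NR3C1 start 1 (chr5:143435513-143435762, minus strand, closed in every list): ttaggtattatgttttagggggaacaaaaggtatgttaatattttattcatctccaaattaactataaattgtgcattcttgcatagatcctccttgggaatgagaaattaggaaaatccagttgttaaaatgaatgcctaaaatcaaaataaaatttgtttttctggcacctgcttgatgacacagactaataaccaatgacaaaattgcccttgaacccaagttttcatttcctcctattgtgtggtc
NR3C1 start 5 (chr5:143404237-143404486, minus strand, open in every list): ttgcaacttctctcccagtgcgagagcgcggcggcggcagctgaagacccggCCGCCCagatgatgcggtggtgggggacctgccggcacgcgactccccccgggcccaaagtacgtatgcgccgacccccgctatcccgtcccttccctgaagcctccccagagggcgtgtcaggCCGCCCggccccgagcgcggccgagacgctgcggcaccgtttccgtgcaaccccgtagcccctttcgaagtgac
NR3C2 start 4 (chr4:148442415-148442664, minus strand, open in every list): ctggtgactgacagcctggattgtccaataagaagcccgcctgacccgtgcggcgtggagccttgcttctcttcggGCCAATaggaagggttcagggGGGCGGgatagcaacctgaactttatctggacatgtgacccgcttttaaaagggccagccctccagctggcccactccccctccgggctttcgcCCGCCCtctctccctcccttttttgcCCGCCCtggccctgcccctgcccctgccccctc
SGK1 start 1 (chr6:134318113-134318362, minus strand, closed in every list): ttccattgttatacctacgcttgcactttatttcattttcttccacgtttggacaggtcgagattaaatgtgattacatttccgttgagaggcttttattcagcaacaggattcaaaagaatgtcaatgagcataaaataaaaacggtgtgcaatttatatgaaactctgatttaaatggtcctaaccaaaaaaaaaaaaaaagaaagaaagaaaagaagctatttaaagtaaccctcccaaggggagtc
SGK1 start 3 (chr6:134174867-134175116, minus strand, open in every list): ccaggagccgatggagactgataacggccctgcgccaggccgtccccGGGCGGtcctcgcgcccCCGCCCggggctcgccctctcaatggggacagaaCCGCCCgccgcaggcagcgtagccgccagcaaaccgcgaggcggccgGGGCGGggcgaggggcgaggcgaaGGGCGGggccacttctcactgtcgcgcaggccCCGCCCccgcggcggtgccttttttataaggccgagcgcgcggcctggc
FKBP5 start 2 (chr6:35688916-35689165, minus strand, open in 3 lists): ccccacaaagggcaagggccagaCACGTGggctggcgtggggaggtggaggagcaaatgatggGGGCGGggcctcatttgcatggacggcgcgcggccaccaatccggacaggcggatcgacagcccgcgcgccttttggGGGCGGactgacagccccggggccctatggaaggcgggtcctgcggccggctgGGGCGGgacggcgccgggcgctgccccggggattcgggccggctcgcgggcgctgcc
PER1 start 1 (chr17:8152405-8152654, minus strand, open in DEK KO 1 alone): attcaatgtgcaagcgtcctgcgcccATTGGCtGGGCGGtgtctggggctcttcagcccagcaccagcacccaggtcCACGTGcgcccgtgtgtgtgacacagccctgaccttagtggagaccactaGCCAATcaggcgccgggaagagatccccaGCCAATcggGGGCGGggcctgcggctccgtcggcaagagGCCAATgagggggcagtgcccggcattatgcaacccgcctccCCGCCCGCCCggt

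None of the 17 sequences held the receptor element, its looser form, the hexamer or the CRE, which were present in 0.00287%, 0.328%, 12.4% and 1.64% of the 34789 promoters of the table. The search covered these 250 bases only, and elements farther from the starts were not looked for. GC boxes, found in 42.6% of all promoters, were the most frequent match. SGK1 start 3 carried 6 of them, PER1 4 and NR3C1 start 5 carried 2, and NR3C1 start 1 and SGK1 start 1 had no match to any motif. PER1 also carried 4 CCAAT boxes, a motif of 13.8% of promoters, and NR3C2 start 4 carried 1. The E-box, the element through which the clock activators CLOCK and BMAL1 act on PER1, occurred at -173 before the PER1 start and at -227 before FKBP5 start 2, and in 6.33% of all promoters. The AP-1 letters, found in 6.55%, occurred only before NR3C1 start 2 among these 17, at -228.

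Accessibility at the starts separated alternative promoters of the same gene. Of the 17 starts, 5 lay inside a peak of every list, 8 inside a peak of none and 4 inside a peak of some lists. Over all starts in the table, 35.3% lay inside a peak of every list and 56.1% inside a peak of none. Each of the receptors and SGK1 had at least 1 start open in every list, and FKBP5 and PER1 had none. Open here means that the start base lies inside a peak, a stricter rule than the 1 kb used for the markers. Both FKBP5 starts lay within 1 kb of a peak in every list.

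The glucocorticoid receptor gene (NR3C1, gene ID 2908, chr5:143277931-143435512) is read from several promoters. Its starts 3, 4 and 5 lay in 1 broad region, chr5:143403282-143405770, which also spans starts 6 and 7. This region ranked at percentiles 72.2 and 63.0 in the WT control lists and 65.8 and 70.1 in the DEK KO lists. A percentile here is the rank of the peak's −log10 p within its own list, from 0 to 100, so it places a region among the peaks of 1 library and does not measure a change in signal. The groups overlapped. Start 6 lay inside the peak in all lists but WT control 2, and start 7 in WT control 1 alone, as the edge of the peak moved between libraries. Starts 1 and 2, about 30 kb farther upstream, lay in no peak. Their upstream sequences were also AT-rich, with a GC content of 32.8% and 39.6%, against 59.2% to 76.0% at the 5 starts open in every list.

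At the mineralocorticoid receptor gene (NR3C2, gene ID 4306, chr4:148078764-148445322), only start 4 was open, in the region chr4:148442038-148443099. Its percentile was 90.7 and 91.3 in the WT control lists and 80.3 and 90.6 in the DEK KO lists. Both knockout values lay below both control values, although DEK KO 2 was lower by less than 1 percentile. Starts 1, 2 and 3 lay in no peak and were 1599 to 2259 bp from the nearest one, and their GC content of 78.4% to 81.6% was the highest among the closed starts.

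SGK1 (gene ID 6446, chr6:134169256-134318112) was open at start 3, 143 kb downstream of its 5′-most start, in the region chr6:134174072-134175772. The percentile was 81.1 and 77.1 in the WT control lists and 77.5 and 83.7 in the DEK KO lists, and the groups overlapped. Start 1 lay more than 13 kb from any peak (13424 to 13512 bp) and start 2 lay 2089 to 2143 bp from the nearest. Their GC contents were 33.6% and 41.6%, and that of start 3 was 76.0%.

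FKBP5 (gene ID 2289, chr6:35573590-35728583) had a region at start 2, chr6:35688775-35689327, which was called in every list at percentiles 64.6 and 55.7 in the controls and 58.6 and 72.9 in the knockout. The start base itself lay inside the peak in 3 lists and 12 bp outside it in WT control 2, where the edge of the peak fell short of the start. Start 1 was in no peak, but the nearest peaks were 51 to 260 bp away.

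The single start of PER1 (gene ID 5187, chr17:8140472-8152404) lay inside a peak of DEK KO 1 alone. That region, chr17:8152223-8152604, had a percentile of 23.3 and an enrichment over background of 2.17 in the authors' list. Enrichments quoted here are the authors' own fold values for the peak and describe it within that list only. In the other 3 lists the nearest peak was 1200 to 1205 bp away. Those peaks belong to the region chr17:8153493-8154588, upstream of the start, which was called in every list. It stood at percentiles 69.7 and 76.0 in the controls and 70.2 and 83.1 in the knockout, with overlap. The call at this start was therefore made in 1 of 2 knockout libraries, at a low rank, and the genotypes cannot be separated by it.

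**Figure D1:**
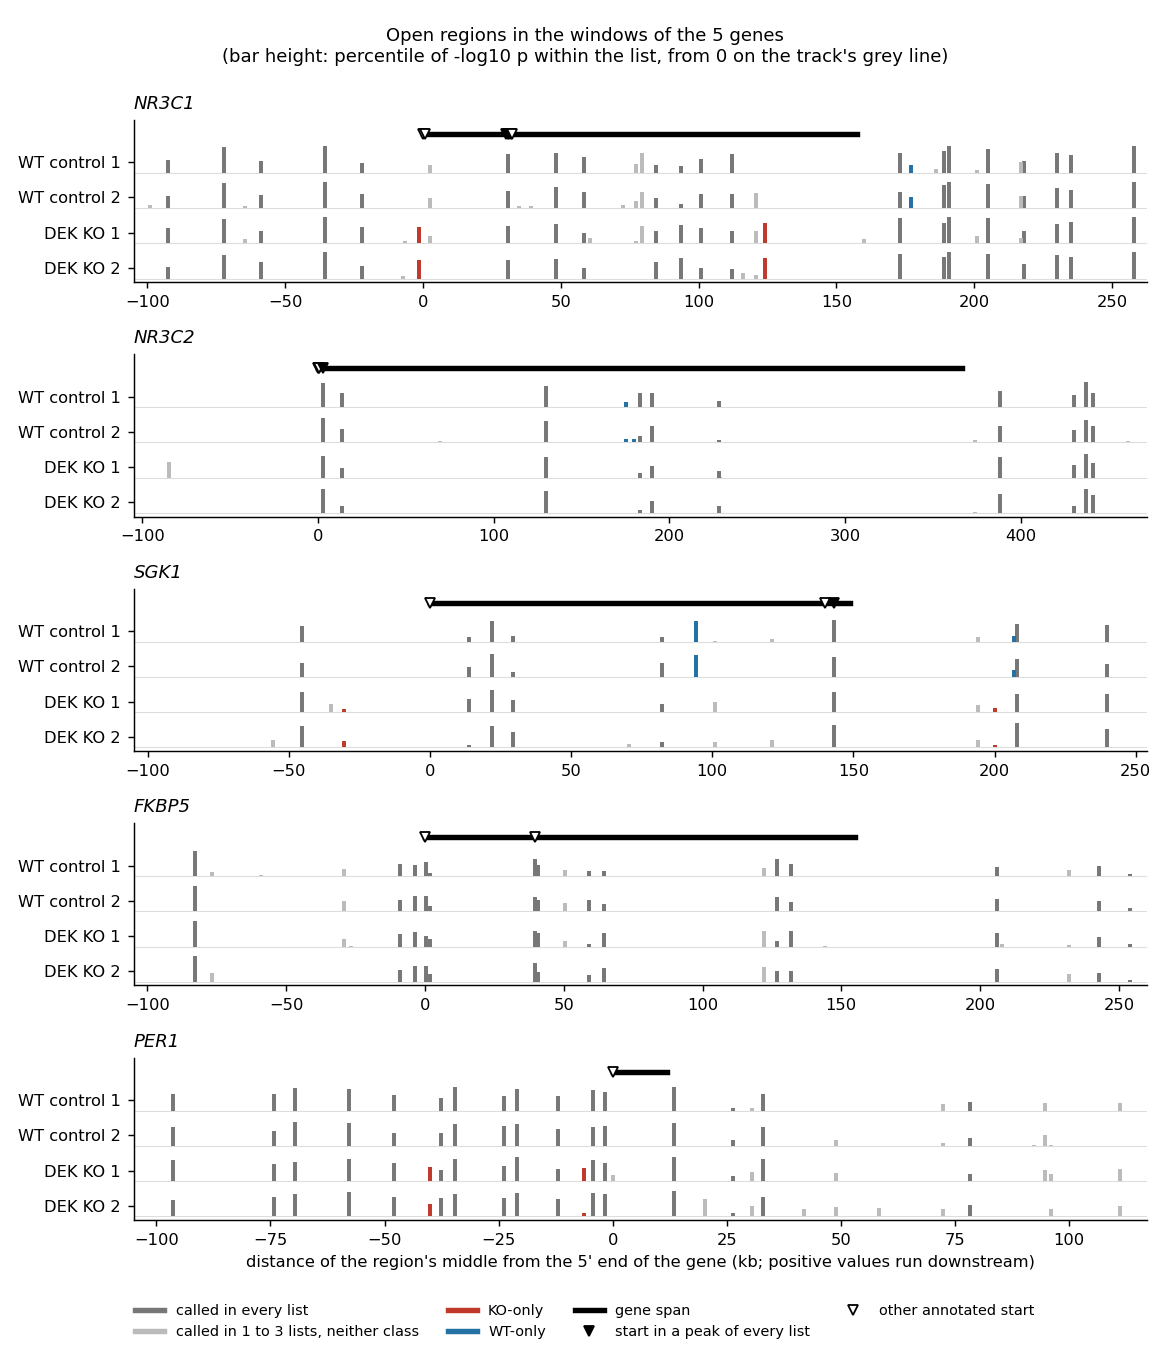
Open regions in the window of each gene, drawn by distance in kb from the 5′ end of the gene span (positive values run downstream), with 1 track per library and bar height giving the percentile of −log10 p within the list. Many of the 134 regions recur in all 4 tracks, and the NR3C2 window is the most sparsely filled.

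The windows differed in how densely they were filled. PER1 had 14.2 regions per 100 kb of window and NR3C1 11.7, which ranked at percentiles 98.9 and 93.6 among the windows of 19974 protein-coding genes. FKBP5 had 7.04, SGK1 5.16 and NR3C2 3.35, at percentiles 52.8, 31.1 and 14.7. The dense windows were not alike in content. In the PER1 window, 10 other protein-coding genes were annotated and 14 of the 30 regions overlapped one of them, and only 1 region overlapped the short PER1 gene itself. The NR3C1 window held 2 other protein-coding genes, with 6 of 42 regions overlapping them, and 17 regions overlapped NR3C1. The SGK1 window held no other protein-coding gene. ARHGAP10 overlapped 7 of the 19 regions in the NR3C2 window, and 7 genes were annotated beside FKBP5, with 10 of its 25 regions. A region in a window is thus near a member gene but not assigned to it.

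Regions called in every list were the largest class. They numbered 68 of the 134, 50.7%, against 45.3% of all regions. The counts were 20 of 42 at NR3C1, 10 of 19 at NR3C2, 8 of 18 at SGK1, 14 of 25 at FKBP5 and 16 of 30 at PER1. Another 34 regions, 25.4%, were called in 1 list alone, against 29.4% of all regions. The most frequent gap in an otherwise shared region was in DEK KO 2, which lacked 7 regions that the other 3 lists called, 5.22%, against 3.49% of all regions, and 4 of these were at NR3C1. WT control 2 lacked 6 (4.48%, against 3.13%), WT control 1 lacked 3 (2.24%, against 2.80%), and DEK KO 1 lacked 1 (0.746%, against 1.74%).

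In the NR3C2 window the open start 4 had the highest median percentile, and in the other windows the highest rank lay away from the starts. The highest at NR3C1 was chr5:143470241-143471925, 34.7 kb upstream of the nearest NR3C1 start, at percentiles 99.7 and 99.4 in the controls and 99.8 and 99.2 in the knockout. A further NR3C1 region, chr5:143243394-143245144 downstream of the gene, stood at 99.2 and 99.3 in the controls and 99.7 in both knockout lists. At FKBP5 the highest was chr6:35810880-35811963, which overlaps LHFPL5, at 93.4 and 95.5 against 97.7 and 96.5. These regions stood near the top of every list. At PER1, chr17:8138331-8139888, which lies 12.5 kb downstream of its start and just past the end of the gene, stood at 88.8 and 86.7 against 92.1 and 96.0. A second PER1 region, chr17:8172905-8174146, which overlaps TMEM107, stood at 83.5 and 83.0 against 90.2 and 89.8. The groups did not overlap at either PER1 region, with the knockout higher at both. The second-ranked region of the NR3C2 window, chr4:148007265-148008441 in ARHGAP10, stood at 94.3 and 84.5 against 88.0 and 89.5, with overlap. At SGK1 the region chr6:134295677-134296590 inside the gene stood at 78.9 and 86.0 against 84.1 and 81.9, also with overlap.

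**Figure D2:**
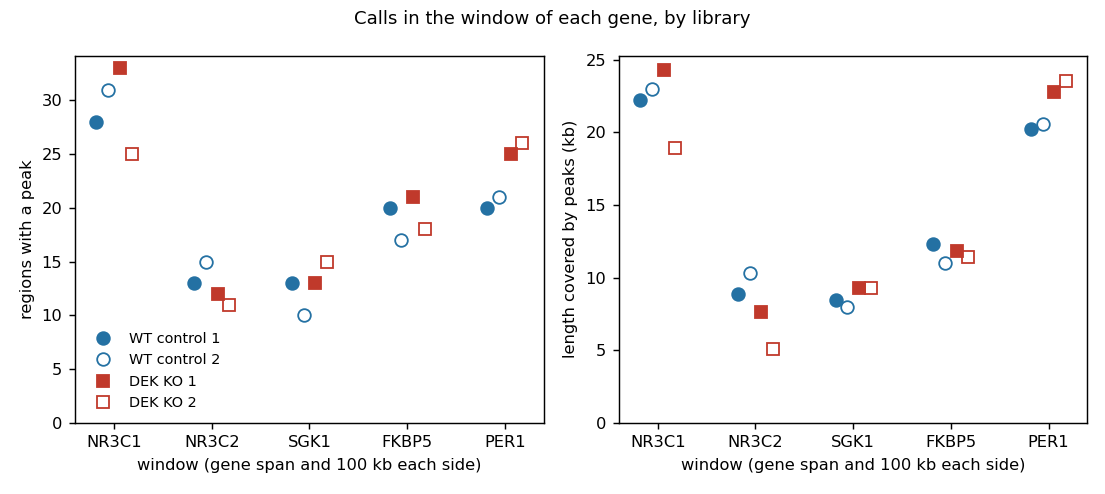
Number of regions with a peak (left) and length covered by peaks in kb (right) in the window of each gene, with 1 point per library (circles, WT control; squares, DEK KO). The NR3C2 points of DEK KO lie below both controls in both panels, the PER1 points above, and the NR3C1 points are spread by DEK KO 2.

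The length covered by peaks moved in different directions at the 5 genes. In the NR3C2 window, peaks covered 8.87 and 10.3 kb in the WT control lists and 7.61 and 5.09 kb in the DEK KO lists, or 9.56 ± 0.984 kb against 6.35 ± 1.78 kb (mean ± SD, n = 2 each). Both knockout libraries were below both controls. In the PER1 window, peaks covered 20.2 and 20.6 kb in the controls and 22.8 and 23.5 kb in the knockout, 20.4 ± 0.312 kb against 23.1 ± 0.479 kb. Here both knockout libraries were above both controls. The SGK1 window had 8.47 and 7.95 kb in the controls and 9.26 and 9.27 kb in the knockout, again without overlap. At NR3C1 the values were 22.2 and 23.0 kb in the controls and 24.3 and 18.9 kb in the knockout, so that the highest and the lowest library were both knockouts. FKBP5 had 12.3 and 11.0 kb against 11.8 and 11.4 kb, with the knockout values between the controls. These sums depend on how many peaks each list calls. The knockout lists were longer with narrower peaks, with a median width of 594 and 550 bp against 610 and 629 bp in the controls. The share of all gene windows whose groups separate in this way was not counted. The separation is therefore not shown to be particular to these genes.

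Regions found in 1 genotype alone were few. KO-only regions, those with a peak in each DEK KO list but in no control list, numbered 6 of 134, 4.48%, against 6.26% of all regions. WT-only regions, with a peak in each control list but in no DEK KO list, numbered 5 of 134, 3.73%, against 2.57% of all regions. NR3C1 had 2 KO-only and 1 WT-only regions, SGK1 had 2 of each, PER1 had 2 KO-only regions, NR3C2 had 2 WT-only regions and FKBP5 had none, as deposited. Among the windows of all protein-coding genes, 57.5% held at least 1 KO-only region, 29.4% at least 1 WT-only region and 18.1% both. With the lists cut to equal length by rank the counts were 4 KO-only and 7 WT-only regions, 3.23% and 5.65% of the windows' regions, against 5.16% and 3.96% of all regions. SGK1 then had 0 KO-only and 2 WT-only regions, NR3C1 had 2 of each, and FKBP5 had 1 WT-only region, with NR3C2 and PER1 as before. Leaving out a library asks for fewer lists, so each of the 11 regions kept its class, and the counts and the shares over all regions both changed. The KO-only count was 12 without WT control 1 (9.16%, against 9.86% of all regions), 9 without WT control 2 (7.20%, against 9.61%), 16 without DEK KO 1 (13.0%, against 17.2%) and 18 without DEK KO 2 (14.4%, against 17.3%). The WT-only count was 14 (10.7%, against 9.06%), 9 (7.20%, against 7.96%), 12 (9.76%, against 6.68%) and 6 (4.80%, against 4.73%), in the same order.

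The strongest one-genotype region of the set was WT-only and lay inside SGK1, at chr6:134223460-134224643, between its first start and the open start 3. Its percentile was 78.1 and 81.7 in the WT control lists, with an enrichment of 11.6 and 12.0 and a width of 1184 and 738 bp. No peak was called there in either DEK KO list, and the nearest ones were 5.78 and 5.91 kb away. By the lower of its 2 percentiles it stood at place 3 of the 3554 WT-only regions, whose median was 16.0. The region lies 45.6 kb upstream of the nearest SGK1 start. It kept its class when the lists were cut to equal length and when only peaks with a −log10 q of at least 5 were used.

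At NR3C1 the stronger KO-only region was chr5:143311422-143311936, inside the gene and 124 kb downstream of the 5′-most start. Its percentile was 77.9 in DEK KO 1 and 77.8 in DEK KO 2, and its enrichment was 7.45 and 8.58. The nearest control peaks were 10.8 kb away in WT control 1 and 2.60 kb away in WT control 2. It stood at place 25 of the 8673 KO-only regions, whose median lower percentile was 21.6. The other KO-only region, chr5:143436858-143437362, lay 1.35 kb upstream of the closed NR3C1 start 1, whose sequence is printed above. It had percentiles of 60.3 and 69.8, which put it at place 337, and the nearest control peaks were 3.64 and 3.63 kb away. Start 1 itself remained outside every peak. The WT-only region of this window, chr5:143258497-143259137 downstream of the gene, had percentiles of 29.4 and 43.2.

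The other one-genotype regions lay below the KO-only regions of NR3C1 and the WT-only region inside SGK1 in rank. At PER1 the KO-only region chr17:8192274-8192613, nearest to the start of BORCS6, had percentiles of 52.9 and 46.0. The second, chr17:8158660-8158921, was 3.96 kb from the start of VAMP2 and had percentiles of 48.8 and 11.9, which differ widely between the knockout libraries. Both PER1 regions lay upstream of the gene, by 39.9 and 6.26 kb, and in each case the start of another gene was nearer. The KO-only regions of SGK1 stood at 16.8 and 10.5 (chr6:134117432-134117807) and at 11.9 and 22.7 (chr6:134348303-134348809, across the start of LOC105378009). Its second WT-only region, chr6:134111059-134111474, stood at 22.7 and 27.8. Both WT-only regions of NR3C2 were weak: chr4:148265452-148265871 had percentiles of 1.24 and 12.5, and chr4:148270260-148271121 had 20.8 and 14.4. The class of 5 of these regions was lost when peaks with a −log10 q under 5 were dropped, namely both KO-only regions of SGK1, the weaker of PER1 and both WT-only regions of NR3C2. Both KO-only regions of SGK1 also lost their class at equal list length.

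**Figure D3:**
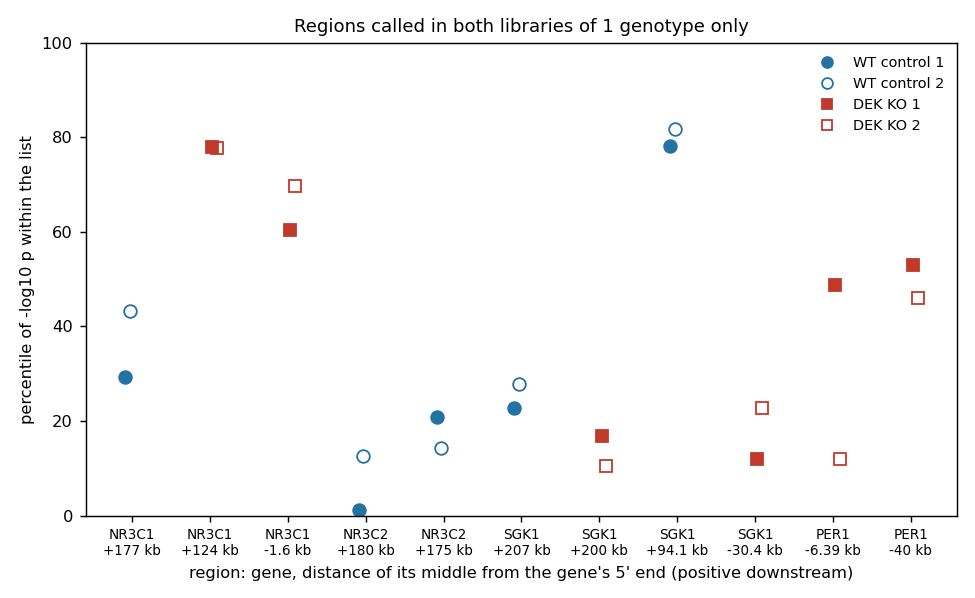
Percentile of −log10 p within the list for the 11 regions called in 1 genotype alone, with 1 point per library that called the region and the distance from the gene's 5′ end (positive downstream) under each name. The WT-only region of SGK1 and a KO-only region of NR3C1 stand near 78 and above, and the NR3C2 regions stand under 21.

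Among the 68 regions called in every list, the percentile was higher in both DEK KO lists than in both control lists at 24, 35.3%, against 31.1% of all regions called in every list. It was lower in both DEK KO lists at 10, 14.7%, against 19.2%. When the lists were cut to equal length, the split was 16 higher and 17 lower of 65, or 24.6% and 26.2%, against 22.5% and 28.0% over all regions. The split between higher and lower ranks thus changed with the length of the lists. Ranked by fold, 18 of 68 were higher and 13 lower, 26.5% and 19.1%, against 25.7% and 19.3% over all regions. With a −log10 q of at least 5, 16 of 58 were higher and 11 lower. These were 27.6% and 19.0%, against 27.8% and 21.8% over all regions. Without WT control 2 the higher count was 41 of 74, 55.4%, against 45.0% over all regions. The lower count was 21 of 71 without WT control 1 (29.6%, against 29.8%), 21 of 75 without DEK KO 2 (28.0%, against 31.5%) and 16 of 69 without DEK KO 1 (23.2%, against 34.9%). Within the gene spans alone, 6 of 26 shared regions ranked higher and 7 lower, 23.1% and 26.9%, against 31.1% and 19.2% over all regions.

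By gene, NR3C1 had 7 regions higher and 3 lower of 20, SGK1 4 and 0 of 8, FKBP5 5 and 2 of 14, and PER1 6 and 1 of 16. NR3C2 had 2 higher and 4 lower of 10, the only one of the 5 windows with more lower than higher ranks at full list length, whereas at equal length FKBP5 had more lower ranks too. At equal list length NR3C1 had 6 and 6, NR3C2 1 and 5, SGK1 3 and 0, FKBP5 2 and 3, and PER1 4 and 3. The median difference between the knockout and control mean percentiles was −3.54 at NR3C2 and 6.72 at SGK1. It was 1.81 at NR3C1, 1.90 at FKBP5 and 4.89 at PER1, with 2.51 over the 68 regions together and 1.33 over all 62686 regions called in every list. Widths showed a similar contrast: 7 of the 10 shared NR3C2 regions were narrower in both DEK KO lists than in both controls and none was wider. Over the 5 genes, 17 of the 68 were narrower and 9 wider, against 23.0% and 18.0% of all regions called in every list.

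**Figure D4:**
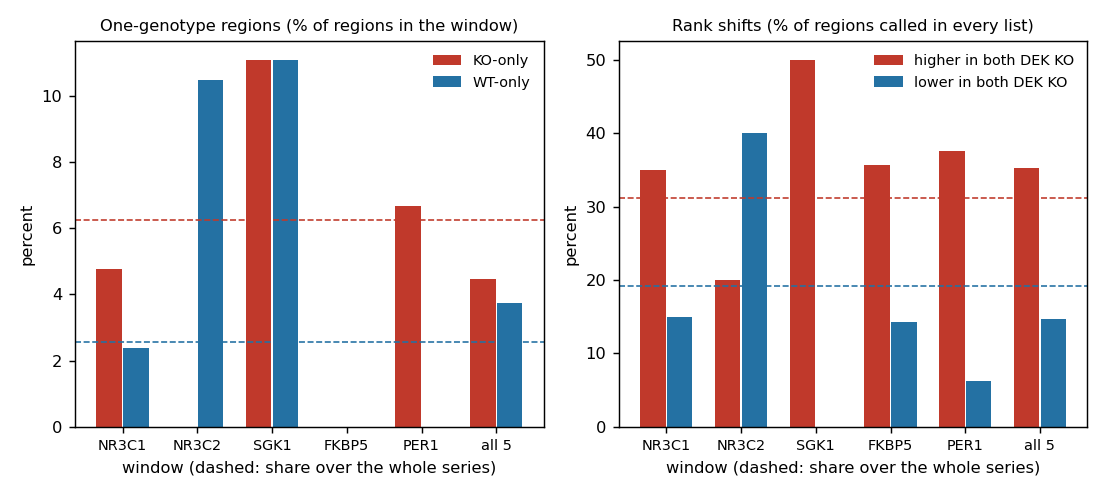
Percent of the regions in each window that were KO-only or WT-only (left), and percent of the regions called in every list whose percentile was higher or lower in both DEK KO lists (right), with dashed lines at the share over the whole series. SGK1 has equal shares of both classes (11.1%) in the lists as deposited, but 0 KO-only and 2 WT-only regions at equal list length or with a −log10 q of at least 5, and NR3C2 has a higher share of lower (40.0%) than of higher ranks (20.0%).

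**Figure D5:**
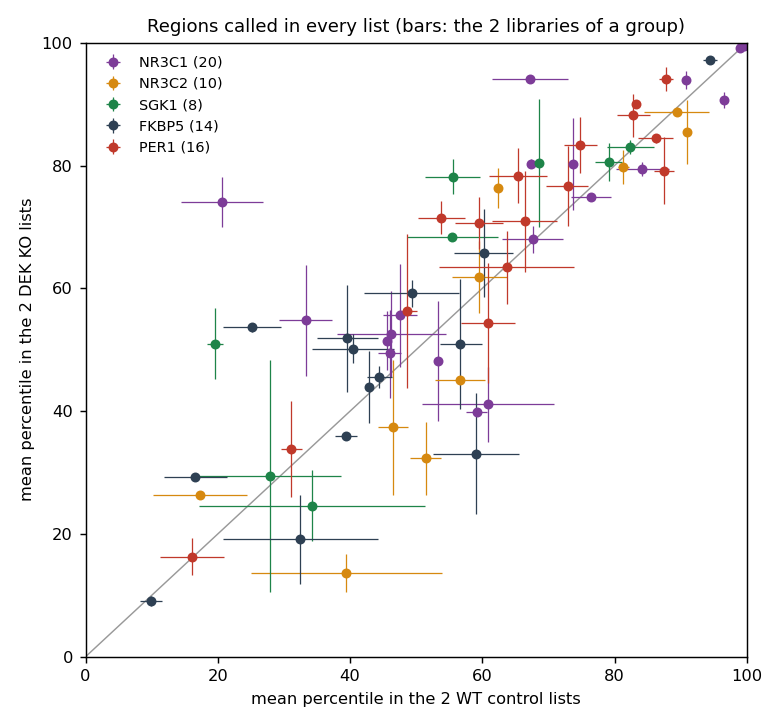
Mean percentile of −log10 p in the WT control lists (horizontal axis) and in the DEK KO lists (vertical axis) for the 68 regions called in every list, coloured by gene, with bars joining the 2 libraries of a group and a diagonal of equal rank. Most points lie near the diagonal, and the NR3C1 point at 20.6 and 74.1 lies farthest above it.

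The widest shift of rank was at NR3C1. The region chr5:143341537-143342389, inside the gene and 60.9 kb downstream of the nearest NR3C1 start, was at percentiles 26.8 and 14.4 in the WT control lists. It was at 70.0 and 78.2 in the DEK KO lists, a difference of 53.5 percentiles between group means of 20.6 ± 8.78 and 74.1 ± 5.76 (SD, n = 2). The peak was 756 and 337 bp wide in the controls and 809 and 821 bp in the knockout, and the enrichments were 5.29 and 3.84 against 9.57 and 12.8. With lists of equal length the percentiles were 26.8 and 13.6 against 65.6 and 75.7. In the opposite direction, chr5:143322607-143323562, also inside NR3C1, was at 70.8 and 50.9 in the controls and 47.2 and 35.0 in the knockout. The gene thus held a region of higher and a region of lower rank in the knockout, and neither pair of groups overlapped.

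At SGK1 the region chr6:134288075-134289339, 28.8 kb downstream of the first start, was at 20.8 and 18.4 in the WT control lists and 45.2 and 56.8 in the DEK KO lists. Another SGK1 region, chr6:134235697-134236410, had the lowest difference of the window, with 17.1 and 51.3 in the controls and 30.4 and 18.8 in the knockout, and the groups overlapped. WT control 2 was the library that stood apart there. At FKBP5, chr6:35663505-35664488, 24.4 kb downstream of start 2, was at 20.8 and 29.5 in the controls and 52.9 and 54.4 in the knockout. A second FKBP5 region, chr6:35601073-35602307, 127 kb downstream of the 5′ end, was at 65.5 and 52.6 against 23.3 and 43.0. Neither FKBP5 pair overlapped. The peak of the second was widest in DEK KO 1, at 1235 bp, where its percentile was lowest. At PER1, chr17:8199927-8200765 was at 57.4 and 50.2 against 68.8 and 74.3, and chr17:8220783-8223492 was at 85.9 and 89.0 against 73.7 and 84.6. Both lie upstream of the gene, 47.5 and 68.4 kb from its start, among other genes.

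Several of the lower ranks of NR3C2 lay side by side. Within chr4:148254484-148271121, a stretch of 16.6 kb inside the gene, 174 to 191 kb downstream of its 5′ end, 4 neighbouring regions were all lower or uncalled in the knockout. This stretch was picked after its values were seen. The first region was at 52.9 and 60.4 in the WT control lists and 45.2 and 44.8 in the DEK KO lists. The second, chr4:148261572-148262510, was at 53.9 and 25.0 against 16.8 and 10.5, and its width was 939 and 594 bp against 432 and 266 bp. The remaining 2 are the weak WT-only regions of this gene. Peaks in the stretch covered 2.67 and 2.96 kb in the controls and 1.18 and 0.706 kb in the knockout. The window's largest difference in the other direction, at chr4:148056771-148057503, lay in ARHGAP10 and not in NR3C2, with 62.3 and 62.6 in the controls and 79.6 and 73.1 in the knockout. The other region of higher rank in both knockout lists, chr4:148216772-148217585, lay inside NR3C2. It was at 24.4 and 10.2 in the controls and 26.1 and 26.4 in the knockout.

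Some values depend on the 100 kb limit of the windows. On the higher side of NR3C1, a region called in every list, chr5:143536145-143537242, lay just outside at 101 kb, with percentiles of 81.4 and 81.2 in the controls and 95.9 and 94.3 in the knockout. The last region inside, at 99.0 kb, was called in WT control 2 alone at 13.0. On the higher side of SGK1, a region at 102 kb, chr6:134420462-134421367, stood at 72.3 and 48.3 in the controls and 87.6 and 92.9 in the knockout. Both excluded regions ranked higher in the knockout, without overlap, and neither enters the counts above. Beyond PER1 on its higher side, the next region was also higher in the knockout, at 20.8 and 28.5 against 32.3 and 66.8. Beyond FKBP5 on that side the groups overlapped, at 80.9 and 79.7 against 76.4 and 81.5. On the lower sides no next region was called in every list, and that of SGK1 was called in all but DEK KO 2. Over all regions called in every list, 31.1% ranked higher in both DEK KO lists. Beyond NR3C2 the next region on the side of its starts was 332 kb away, in WT control 1 alone.

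The rest of the receptor pathway was read in the same way in 57 further genes. Their windows held 1290 regions, of which 77, 5.97%, were KO-only and 33, 2.56%, were WT-only, close to the shares over all regions given above. Of the 57 genes, 44 (77.2%) had at least 1 KO-only region, against 57.5% of all protein-coding gene windows, and 26 (45.6%) at least 1 WT-only region, against 29.4%. Neither window lengths nor the number of regions per window were matched in these shares. The windows of SCNN1B and SCNN1G share a KO-only region, chr16:23227211-23227801. The 8 coregulator genes, such as NCOA1 and NCOR1, help the receptors switch transcription on or off. They had 18 KO-only and 3 WT-only of 213 regions, 8.45% and 1.41%, against 6.26% and 2.57% of all regions. The 7 chaperone genes, which hold the receptors ready for hormone, had 6 and 5 of 145, 4.14% and 3.45%. The 15 genes of ion transport and its regulation had 20 and 9 of 373, 5.36% and 2.41%. The 22 hormone-responsive genes had 29 and 12 of 447, 6.49% and 2.68%. The 2 enzyme genes that interconvert active and inactive glucocorticoid had 2 and 2 of 51, 3.92% for each class. The 3 clock repressor genes had 2 and 2 of 64, 3.12% for each class. Among regions called in every list, 216 of 703 in the pathway ranked higher in both DEK KO lists and 114 lower, 30.7% and 16.2%. Over all regions called in every list, the shares were 31.1% and 19.2%.

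The 4 KO-only regions of highest rank in the pathway belonged to the windows of WNK4, DUSP1, NEDD4L and WNK1. The region of WNK4, a kinase that regulates the thiazide-sensitive transporter, was at 74.4 and 74.0 in the DEK KO lists, 20.8 kb from the gene. That of DUSP1, a phosphatase induced by glucocorticoids, was at 69.0 and 80.2, and 59.7 kb away. NEDD4L, the ubiquitin ligase that removes the epithelial sodium channel and is a target of SGK1, had one inside the gene at 60.3 and 73.9, and WNK1, a kinase upstream of the same transporters, had one inside at 59.6 and 73.2. All 4 windows also held at least 1 WT-only region. The highest-ranked WT-only regions were inside NCOA3, a receptor coactivator, at 68.3 and 71.1 in the control lists, and 80.6 kb from HSD11B2, the enzyme that shields the mineralocorticoid receptor from cortisol, at 57.6 and 56.8. Those of the co-chaperone genes BAG1 and STIP1 were at 52.0 and 56.2 and at 44.9 and 52.2, and lay 79.3 and 99.6 kb from the genes. By the lower of the 2 percentiles, none of these 8 regions reached the WT-only region of SGK1 or the stronger KO-only region of NR3C1, although the DUSP1 region was higher than the latter in DEK KO 2.

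The pattern of covered length over the 4 libraries was compared among 16340 gene windows, by the distance between log2 values centred on each library and each gene. For NR3C2, whose centred log2 values were 0.27, 0.43, −0.10 and −0.59 in WT control 1, WT control 2, DEK KO 1 and DEK KO 2, the nearest were IRX2 (distance 0.0530) and KCNJ13 (0.0813). For NR3C1, lowest in DEK KO 2 at −0.22, they were TNFAIP8L2-SCNM1 (0.0142) and ARHGAP29 (0.0175). SGK1 was most like PHYHD1 and NR2F6, FKBP5 most like JRKL and UBALD1, and PER1 most like TMEM231 and PRSS53. With 4 libraries, such likeness describes a similar pattern of covered length over these libraries only.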

How the data were processed

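ATAC-seq peak lists of 4 libraries, 2 WT control and 2 DEK KO, were used as the authors deposited them, 1 narrowPeak list per library, so peaks were called on each library and not on pooled samples. The submitters' processing notes list, with no settings or roles, the peak caller MACS2 2.2.7.1, the aligner Bowtie2 2.2.5, the trimmer cutadapt 1.18, SAMtools 1.7 with Picard 2.26.9, and the build GRCh38. Any shift of reads for the transposase is not stated there. The deposited columns hold a score, the authors' fold enrichment ratio, −log10 of the p-value and of the q-value, and the summit offset. The lowest deposited −log10 q was 1.30 to 1.32, which matches a q-value limit of 0.05. Depth is unknown from the lists, so no intervals are given.

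Peaks off chromosomes 1 to 22 and X were left out, 135 to 167 per list, and the rest were merged at an overlap of at least 1 bp. The percentile of a region is that of its highest peak by −log10 p within the list. A region is called higher or lower in the knockout where the percentiles of the 2 groups do not overlap. Gene spans and start sites came from RefSeq tables for GRCh38.p14, where the 5 genes and all 57 pathway genes matched (METTL7A as TMT1A), and 11 of 20 marker genes had a start entry. Python 3.11.15, numpy 2.4.6, pandas 2.3.3, scipy 1.17.1 and matplotlib 3.10.9 were used, and the steps were tested on simulated data.

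The genes, lists and rules were chosen with earlier results of these data known. The rule named every one-genotype region, the region at each start, the 2 regions of highest median percentile and the largest gain and loss per window, the regions just inside and outside the window limit, 4 pathway genes per direction, and 2 genes of most alike pattern per gene, among windows of at least 10 regions. Alternatives were a stricter overlap, a −log10 q of at least 5, lists cut to the 89563 highest peaks, narrower windows, ranks by fold and each library left out. A planned comparison of the receptor proteins was not run, and sequence under the peaks was not used here.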

Additional observations from a re-analysis of the deposited data

How the results depend on the processing

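The 5 main counts were recomputed under 10 settings, which gave 47 values, of which 32 were within 1.5 times of the reported count and 15 were not. With lists cut to equal length, 17 shared regions ranked lower in the knockout in place of 10. Within the gene spans alone, which hold 49 regions, there were 1 KO-only (2.04%, against 6.26% of all regions) and 3 WT-only regions (6.12%, against 2.57%). The spans held 26 regions called in every list. Of these, 6 ranked higher (23.1%, against 31.1% of all regions called in every list) and 7 ranked lower (26.9%, against 19.2%). The 24 to 10 split of higher and lower ranks thus became 6 to 7, and the cause was not tested. Leaving out each library in turn gave 9 to 18 KO-only regions, 6 to 14 WT-only regions, 69 to 75 called in every list, 34 to 41 ranked higher and 14 to 21 ranked lower, since a class then needs fewer lists. Of the 11 one-genotype regions, 6 kept their class under a stricter overlap, the −log10 q limit of 5 and equal list length. No paired analysis was possible because the results come from no test. Depth is unknown, so a missing call cannot be told apart from a peak below the calling limit.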
